A study of Mus musculus with 3 samples.

Results

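The genes described here are the protein-coding genes of the translation initiation factors, eIF1 to eIF6, in sorted mouse bone marrow pre-B cells. They were chosen by symbol: of 60 rows of the count table whose Entrez identifier maps to a symbol beginning with Eif1 to Eif6, 3 pseudogenes were left out. Another 10 were left out by name, namely an Argonaute-like gene, the Eif2ak kinases, the Eif4ebp inhibitors and the sex-linked pair Eif2s3x and Eif2s3y. This left 47 of the 26286 genes in the table, and the rule itself uses symbols and gene types, not measured values. RNA-seq counts came from 3 libraries of 1 group. The mice were CAG-rtTA3;TRE-GFP-shLuc.1309 bitransgenic animals, in which the rtTA3 transactivator switches on a cassette that joins GFP to a control hairpin against luciferase. They received doxycycline for 3 days, and GFP+B220+IgM-Kit-CD25+ marrow cells were collected by flow cytometry, so every library carries the transgenes, the drug and the hairpin. No second condition was labelled, and nothing in the labels ties a library to its own mouse. Replicate 1 stood apart in its sex-linked genes, which were chosen after their values were seen. The counts of replicates 1, 2 and 3 were 0, 1635 and 3573 for Eif2s3y and 1, 1950 and 4881 for Ddx3y, both on the Y chromosome, and 22609, 94 and 70 for Xist, the RNA of the inactive X. Replicate 1 therefore held cells of other mice than replicates 2 and 3, whereas the files do not show whether replicates 2 and 3 came from separate mice. P-values measure only the spread of these samples, in which mice, sex and technical steps cannot be told apart.

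Initiation factors bring the small ribosomal subunit, the initiator tRNA and an mRNA together. The eIF4F complex binds the mRNA cap and unwinds the leader, eIF2 carries the initiator tRNA as a complex with GTP, eIF2B recharges eIF2 with GTP, and eIF3 with eIF1 and eIF1A holds the scanning ribosome open until the start codon is found. eIF5 and eIF5B then let the large subunit join. The activity of the machinery is known to be tuned by phosphorylation of eIF2 and by proteins that bind eIF4E.

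Replicate 3 was the deepest library, with 32086649 counts, against 12418054 and 12021576 for replicates 1 and 2. All 12 pre-B markers reached 1 RPKM (counts per kilobase of gene, scaled to library size) in every library, led by Cd79b and Vpreb3. Of markers of other cells, 1 of 10 T and NK genes reached 1 RPKM in every library. All 15 neutrophil genes did, with S100a9 and S100a8 highest, and 5 of 12 monocyte and macrophage genes did. So did 3 of 8 erythroid genes, with Tfrc (112 RPKM) and Hba-a1 (4.38 RPKM) highest. The only labelled technical difference is the version of CASAVA, Illumina's base-call software: replicates 1 and 2 have 1.8.2 and replicate 3 has 1.8.0, which cannot be told apart from the other properties of replicate 3.

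Initiation factor genes were expressed almost without exception. Of the 47 genes, 46 had 1 RPKM or more in all 3 libraries, against 42.4% of all genes in the table. The median level over the 47 genes was 5.70 ± 0.04 on the log2(RPKM + 0.5) scale (SD, n = 3), against 2.57 for the 17423 genes with a count. Of the 47 genes, 23 stood at or above the 90th percentile of those 17423 genes, and 42 at or above the 50th. The exception was Eif4e1b, a germ cell form of the cap-binding protein, with 0 counts in every library, which allows up to 0.127, 0.132 and 0.0491 RPKM in replicates 1, 2 and 3 (3 counts per library). Together the 47 genes took 0.894% of the counts of replicate 1 (95% Wilson interval 0.889 to 0.899%), 0.888% of replicate 2 (0.883 to 0.894%) and 0.936% of replicate 3 (0.933 to 0.940%). These intervals and limits cover counting error only. Because whole cells of a sorted population were sequenced in bulk, fewer expressing cells and less RNA per cell cannot be told apart.

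**Figure D1:**
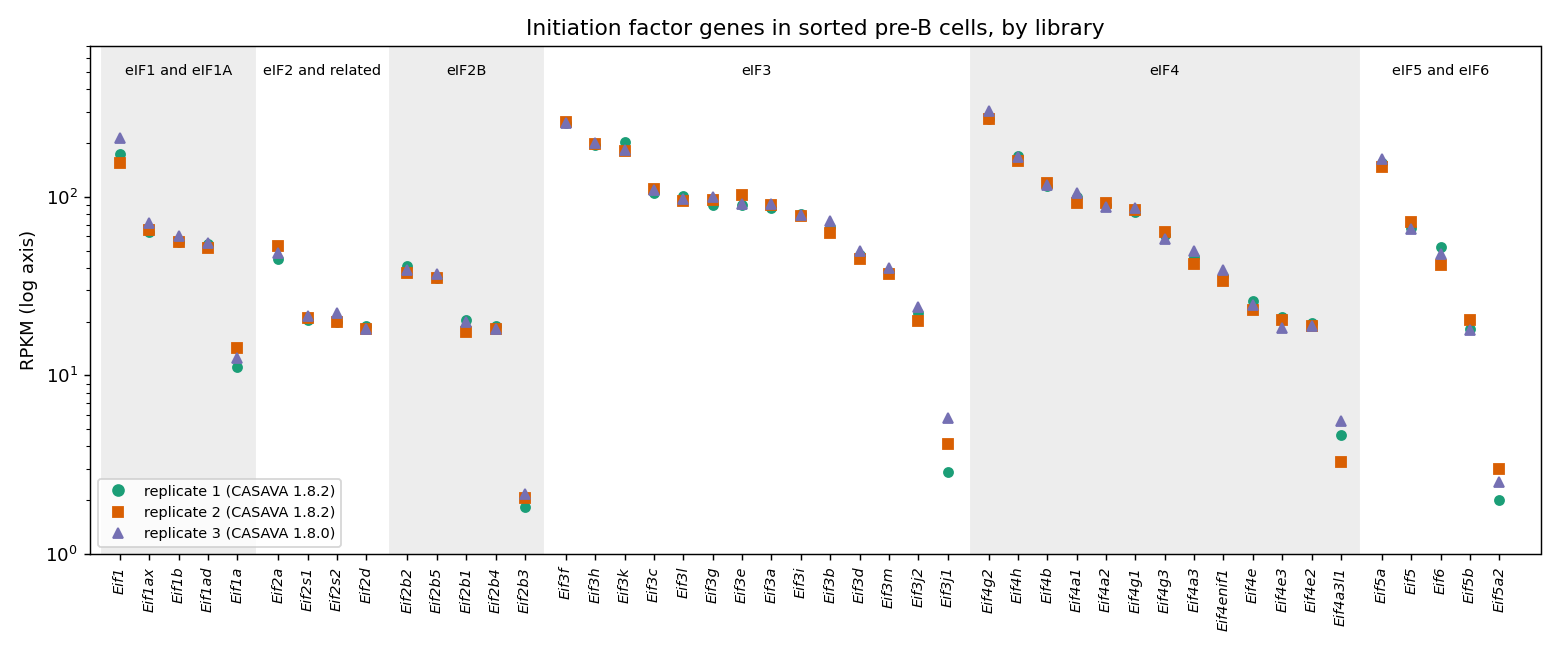
Levels of the initiation factor genes in RPKM on a log axis, grouped by factor, with 1 symbol for each of the 3 libraries. Eif4e1b, at 0 counts, is not drawn. The genes span about 2 to 283 RPKM, and for most of them the 3 symbols lie nearly on top of each other.

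The eIF4 group held the gene with the highest level. Eif4g2, which encodes DAP5, a relative of the eIF4G scaffold that lacks the eIF4E-binding part, stood at 273, 272 and 303 RPKM in replicates 1, 2 and 3. It alone took 23.7%, 23.7% and 25.2% of the counts of all 47 genes. Replicate 3 was highest and the other libraries were nearly equal. The canonical scaffold Eif4g1 stood at 82.7, 84.5 and 87.1 RPKM, and its paralog Eif4g3 at 61.1, 63.5 and 58.4 RPKM. Eif4g2 exceeded Eif4g1 by 1.73 ± 0.06 on the log2(RPKM + 0.5) scale, 3.32-fold, and Eif4g1 exceeded Eif4g3 by 0.47 ± 0.09, 1.39-fold, each in 3 of 3 libraries. With the length of the longest GENCODE transcript the second difference was 0.97. Both differences were larger than the spread between libraries, but an exact sign-flip permutation test over 3 libraries cannot give a two-sided p below 0.25, which both had (0.286 after Benjamini-Hochberg adjustment over the 8 gene pairs compared).

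Both genes of the eIF4F helicase stood at almost equal levels in RPKM. Eif4a1 shares 67.5% and Eif4a2 20.5% of their 31-base words with transcripts of other genes, so these levels are uncertain. Eif4a1 stood at 100.3, 92.6 and 105.8 RPKM and Eif4a2 at 89.9, 92.4 and 88.3 RPKM, and in replicate 2 the values nearly coincided. The difference was 0.14 ± 0.13 on the log2 scale, 1.10-fold, about as large as its spread, and it turned to -0.00437 when the length of the longest GENCODE transcript replaced the deposited gene length. The cap-binding protein gene Eif4e was far lower, at 26.1, 23.1 and 24.9 RPKM, next to its relatives Eif4e3 (20.1 ± 1.42 RPKM, n = 3) and Eif4e2 (19.2 ± 0.481 RPKM). Eif4e2 encodes a cap-binding protein that represses translation. Eif4e exceeded Eif4e2 by 0.35 ± 0.06 and Eif4e3 by 0.29 ± 0.12. Both differences turned round, to -0.91 and -0.48, with the GENCODE lengths, since the deposited length of Eif4e is 2882 bases and its longest coding transcript 4991. The order within eIF4F, Eif4a1, Eif4a2, Eif4g1, Eif4g3 and Eif4e from high to low, was the same in every library, and Eif4a1 had a 4.03-fold higher mean than Eif4e. With the GENCODE lengths that fold was 7.40, and Eif4a2 (105.694 RPKM) and Eif4a1 (105.514 RPKM) stood level.

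Of the helper proteins of the helicase, Eif4h stood at 165 ± 5.82 RPKM and Eif4b at 117 ± 2.36 RPKM. Eif4a3, a helicase of the same family that marks spliced exon junctions and serves no canonical initiation, stood at 45.9, 41.9 and 49.6 RPKM. Eif4a3l1, a close copy of Eif4a3, stood at 4.499 ± 1.14 RPKM. Eif4enif1, which encodes the transporter that carries eIF4E into the nucleus, stood at 36.2 ± 2.57 RPKM.

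Of the 5 genes of eIF4F, the starts of Eif4e, Eif4g1 and Eif4a1 are shown because they hold the word CACGTG, which those of Eif4a2 and Eif4g3 do not, and which is a palindrome known as the E-box bound by Myc and its relatives. Each window runs from 250 bases before the RefSeq start to 30 bases after it, on the transcribed strand of GRCm38.p6, with the word in capitals. Eif4e has 2 RefSeq promoters, and the window shown is of a promoter that holds the word. Here and below, a gene counts as holding a word if any of its RefSeq promoters does. They lie at chr3:138527018-138527297 (+) for Eif4e, chr16:20672477-20672756 (+) for Eif4g1 and chr11:69672394-69672673 (-) for Eif4a1.
Eif4e: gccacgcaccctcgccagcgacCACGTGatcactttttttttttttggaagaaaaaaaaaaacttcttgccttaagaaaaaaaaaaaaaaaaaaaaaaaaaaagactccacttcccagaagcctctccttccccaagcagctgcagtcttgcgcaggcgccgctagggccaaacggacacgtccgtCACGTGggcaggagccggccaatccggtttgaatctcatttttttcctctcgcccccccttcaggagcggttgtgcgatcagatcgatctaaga
Eif4g1: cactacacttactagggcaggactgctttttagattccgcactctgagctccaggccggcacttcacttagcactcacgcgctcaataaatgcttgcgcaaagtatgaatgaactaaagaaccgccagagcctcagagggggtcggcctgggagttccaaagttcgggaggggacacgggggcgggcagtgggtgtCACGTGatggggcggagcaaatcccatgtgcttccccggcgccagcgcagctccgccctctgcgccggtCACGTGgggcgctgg
Eif4a1: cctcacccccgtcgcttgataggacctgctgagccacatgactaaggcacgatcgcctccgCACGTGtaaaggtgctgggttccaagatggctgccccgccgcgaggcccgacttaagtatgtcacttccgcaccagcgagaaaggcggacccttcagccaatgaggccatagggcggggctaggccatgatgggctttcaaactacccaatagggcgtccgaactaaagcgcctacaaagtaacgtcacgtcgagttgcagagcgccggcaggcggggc
Eif4e held the word 228 and 64 bases before its start, written -228 and -64. Eif4g1 held it at -54 and at 16 bases into the transcript, and Eif4a1 at -189. RefSeq promoters were found for 37 of the 47 genes, and 10 of those 37 (27.0%) held the word in such a window: the other 7 were Eif1b, Eif3a, Eif3f, Eif3k, Eif4h, Eif5a and Eif5a2. Among all 27025 genes with a RefSeq promoter, 7.71% held it, and of the 8960 of them that passed the count filter below 11.5% did. The match is a description of the letters, with no binding measured here.

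The genes of the eIF4E-binding proteins, which keep eIF4E from eIF4G until they are phosphorylated, were measured beside Eif4e. Eif4ebp2 stood at 104.8, 100.3 and 111.6 RPKM, Eif4ebp1 at 31.2 ± 2.16 RPKM and Eif4ebp3 at 21.1 ± 1.64 RPKM. Eif4ebp2 and Eif4ebp1 were above Eif4e in RPKM in each library. For Eif4ebp1 this order rests on the deposited lengths, 981 bases against 2882 for Eif4e. Its counts, 396, 337 and 1020, were below those of Eif4e, 936, 798 and 2305.

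The subunits of eIF2 that belong to the 47 genes were closely matched in RPKM. Eif2s1, the alpha subunit that stress kinases phosphorylate, stood at 20.5, 21.0 and 21.5 RPKM, and Eif2s2, the beta subunit, at 19.8, 20.0 and 22.2 RPKM. Their difference was 0.03 ± 0.06 on the log2 scale (1.02-fold, exact sign-flip permutation p = 0.5) and had opposite signs in different libraries. Without length correction, in CPM, it was 0.35. The gamma subunit is encoded on both the X and the Y chromosome, by genes outside the 47. Eif2s3y stood at 0, 77.2 and 62.8 RPKM in replicates 1, 2 and 3, where 0 counts in replicate 1 allow up to 0.137 RPKM. Eif2s3x stood at 5.32, 3.51 and 4.45 RPKM. The summed gamma level was thus 5.32 RPKM in replicate 1, below both other subunits, and 80.7 and 67.3 RPKM in replicates 2 and 3, above both. Eif2s3x shares 37.2% of its 31-base words with transcripts of 25 other genes, so its level is uncertain. Eif2a, which despite its name is no eIF2 subunit, stood at 44.8, 53.2 and 48.3 RPKM, and Eif2d, which can place tRNA on the ribosome without GTP, at 18.5 ± 0.440 RPKM.

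The 5 subunits of eIF2B, the exchange factor that the integrated stress response shuts down, did not stand at 1 level. Eif2b2 stood at 41.1, 37.5 and 39.0 RPKM and Eif2b5, the catalytic epsilon subunit, at 34.9, 35.0 and 36.7 RPKM. Eif2b1, the alpha subunit through which phosphorylated eIF2 is sensed, stood at 20.4, 17.5 and 19.9 RPKM and Eif2b4 at 19.0, 18.2 and 18.2 RPKM, and the ranges of this pair overlapped. Eif2b3, the gamma subunit, was lowest at 1.82, 2.05 and 2.18 RPKM, from 91, 99 and 282 counts over 4022 bases. The highest mean was 19.4-fold above the lowest. Between the subunits the coefficient of variation (SD over mean) was 65.4%, 65.7% and 65.0% in replicates 1, 2 and 3, whereas the median over subunits between libraries was 4.73%. Eif2b3 shares no 31-base word with another gene, and by its longest GENCODE transcript its level was 2.16 RPKM.

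The start of Eif2b4 is shown because it carries the word CCGGAAG, the core of sites bound by ETS factors, with its first base at position 2 from the start. The window has the same limits as those above, at chr5:31193110-31193389 (-), with the word in capitals.
Eif2b4: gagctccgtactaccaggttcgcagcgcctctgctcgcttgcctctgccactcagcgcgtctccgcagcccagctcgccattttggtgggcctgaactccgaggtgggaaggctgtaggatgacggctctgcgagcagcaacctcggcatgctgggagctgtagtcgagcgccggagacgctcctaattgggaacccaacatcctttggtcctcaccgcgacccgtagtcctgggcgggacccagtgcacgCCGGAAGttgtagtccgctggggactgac
On either strand (CCGGAAG or CTTCCGG), 14 of the 37 genes with a promoter (37.8%) held this word, against 9.48% of all 27025 genes and 21.2% of the 8960 that passed the count filter. Among them were Eif2b2, 5 genes of eIF3 (Eif3c, Eif3d, Eif3g, Eif3l and Eif3m) and Eif4e2. Neither form can overlap CACGTG, and Eif1b, Eif5a and Eif5a2 held both words.

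The eIF3 complex, the largest initiation factor, had the highest median of the groups, 6.51 ± 0.03 on the log2(RPKM + 0.5) scale, and its subunits spread over a wide range that the libraries repeated. Without length correction, in CPM, the medians of the eIF4 group (7.40) and of the eIF5 and eIF6 group (7.21) were above that of eIF3 (7.19). Eif3f stood at 258, 261 and 260.1 RPKM, with a coefficient of variation of 0.563%, the smallest of the 46 genes with counts. Eif3h stood at 196, 197 and 199 RPKM and Eif3k at 202, 181 and 183 RPKM, with overlapping ranges. Eif3f and Eif3h encode the pair of MPN-domain subunits that sit together in the complex. Below them came Eif3c (108 ± 2.88 RPKM), Eif3l (98.0 ± 3.52 RPKM), Eif3g (95.04 ± 4.65 RPKM), Eif3e (94.9 ± 6.77 RPKM) and Eif3a (89.6 ± 2.34 RPKM), and the neighbours from Eif3l to Eif3a did not differ beyond their spread. Eif3i (79.004 ± 1.43 RPKM), Eif3b (68.0 ± 5.37 RPKM), Eif3d (47.3 ± 2.64 RPKM), which can itself bind the cap of some mRNAs, and Eif3m (38.4 ± 1.59 RPKM) followed with ranges that did not touch. Of the 11 neighbouring pairs in this order of 12 subunits, 7 had separate ranges and 4 overlapped. Eif3f had a 6.78-fold higher mean than Eif3m. With the GENCODE lengths that fold was 4.24, and Eif3h, 5.09-fold above Eif3m, was the highest subunit. Eif3m shares 57.9% of its 31-base words with other genes, against 0.403% for Eif3f and 37.4% for Eif3h. How the shared reads were divided is uncertain, and so are the level of Eif3m and the folds over it. The coefficient of variation between the 12 subunits was 59.9%, 59.2% and 57.3% in replicates 1, 2 and 3, against a median of 3.87% between libraries.

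The loosely bound subunit eIF3j is encoded by a near-identical pair of genes. Eif3j2 stood at 22.2, 20.3 and 24.1 RPKM and Eif3j1 at 2.89, 4.12 and 5.78 RPKM, from 85, 117 and 440 counts. Eif3j2 shares 94.9% and Eif3j1 57.7% of their 31-base words with other genes, above all with each other, so how their reads were divided is uncertain. Eif3j1 had the largest coefficient of variation of the 46 genes, 34.0%.

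**Figure D2:**
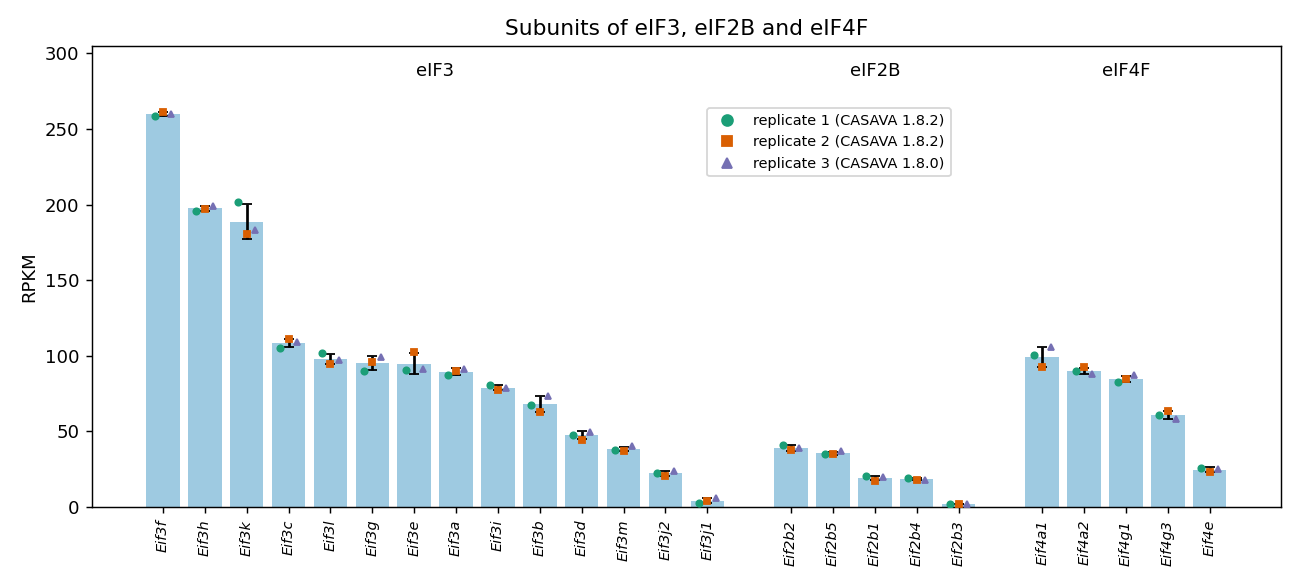
Mean level in RPKM (bars) with the SD over 3 libraries, and the value of each library (symbols), for the subunits of eIF3, eIF2B and eIF4F in falling order. The steps between subunits, 6.78-fold from Eif3f to Eif3m and 19.4-fold from Eif2b2 to Eif2b3, are large beside the spread of the libraries. With GENCODE lengths these folds are 4.24 and 17.8. Eif3m shares 57.9% of its 31-base words with other genes, so the fold from Eif3f to Eif3m is uncertain.

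Some mRNAs of the translation machinery begin with a C and a run of pyrimidines, the feature called TOP, through which mTOR controls them. Among the 37 genes with a RefSeq promoter, only Eif3f began with a C followed by 4 or more pyrimidines at the annotated base, against 3.01% of all 27025 genes, and its window is shown for that reason. Annotated starts can be off by a few bases, and no match at that base says nothing about the other genes. The window lies at chr7:108934165-108934444 (+). Capitals mark the pyrimidine run of 11 bases at the start and the word CACGTG at -68.
Eif3f: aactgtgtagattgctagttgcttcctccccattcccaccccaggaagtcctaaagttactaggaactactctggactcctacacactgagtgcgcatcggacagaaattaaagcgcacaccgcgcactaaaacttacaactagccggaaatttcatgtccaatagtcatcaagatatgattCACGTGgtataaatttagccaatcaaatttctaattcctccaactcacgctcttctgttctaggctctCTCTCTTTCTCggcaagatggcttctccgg

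The start codon factors were led by Eif1, the guardian of start codon choice, at 174, 154 and 214 RPKM. Its libraries were further apart than those of most genes, and replicate 3 was highest. The paralog Eif1b stood at 55.9, 56.1 and 60.02 RPKM, and Eif1 exceeded it by 1.64 ± 0.18 on the log2 scale, 3.11-fold, in 3 of 3 libraries (exact sign-flip permutation p = 0.25). The pseudogene Eif1-ps1, named after its values were seen, had 240, 202 and 791 counts. Scaled to library size it stood at 57.5, 50.2 and 73.2 RPKM, in the same order over the libraries as Eif1. The pseudogene Eif1-ps2, with 6, 6 and 49 counts, stood at 1.41, 1.46 and 4.45 RPKM, in another order. Eif1ax, the X-linked gene of eIF1A, stood at 63.6, 65.1 and 71.5 RPKM, and its homolog Eif1a at 11.1, 14.3 and 12.5 RPKM. The level of Eif1ax depends on the length used, since 926 bases were deposited and its longest GENCODE transcript has 5172, by which it would stand at 11.9 RPKM. Eif1ad, which encodes a protein with an eIF1A-like domain, stood at 53.6 ± 1.85 RPKM.

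The late factors were led by Eif5a, at 155, 147 and 163 RPKM, which encodes the hypusine-bearing protein that also eases elongation at proline stretches. Its paralog Eif5a2 stood at 2.00, 2.98 and 2.55 RPKM. The difference was 5.70 ± 0.28 on the log2(RPKM + 0.5) scale, in 3 of 3 libraries (exact sign-flip permutation p = 0.25). It amounts to 52.2-fold on that scale, which is below the plain ratio of RPKM because the added 0.5 weighs on the low Eif5a2. With 0.1 added in place of 0.5 the difference was 5.91. With 0.5 and the GENCODE lengths it was 6.20. The enzymes that make hypusine were both present, with Dhps, which starts the modification, at 24.3 ± 2.23 RPKM and Dohh, which completes it, at 22.1 ± 1.22 RPKM. Eif5, the GTPase activator of eIF2, stood at 68.3 ± 3.10 RPKM, Eif5b, the GTPase of subunit joining, at 18.9 ± 1.32 RPKM, and Eif6, which keeps the ribosomal subunits apart, at 52.7, 41.6 and 48.0 RPKM.

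Comparisons between genes rest on gene length and on how reads shared with other genes were counted, a rule not given in the sources used here. The deposited length lay within 0.8 to 1.25 times the longest GENCODE coding transcript for 39 of the 47 genes. It was shorter for 6 and longer for 2, Eif5a and Eif4e2. By the transcript length Eif5a, at 218 RPKM, passed every gene but Eif4g2 (274 RPKM), and Eif3h, at 187 RPKM, passed Eif3f, at 156 RPKM. The share of 31-base words found in transcripts of another gene had a median of 6.51% over the 46 genes with counts, and exceeded 50% in 5: Eif3j2, Eif4a1 (67.5%), Eif4a3l1 (61.8%), Eif3m (57.9%) and Eif3j1. Over the 46 genes it had a rank correlation of -0.12 (Spearman) with the level, a description of genes within the same libraries.

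**Figure D3:**
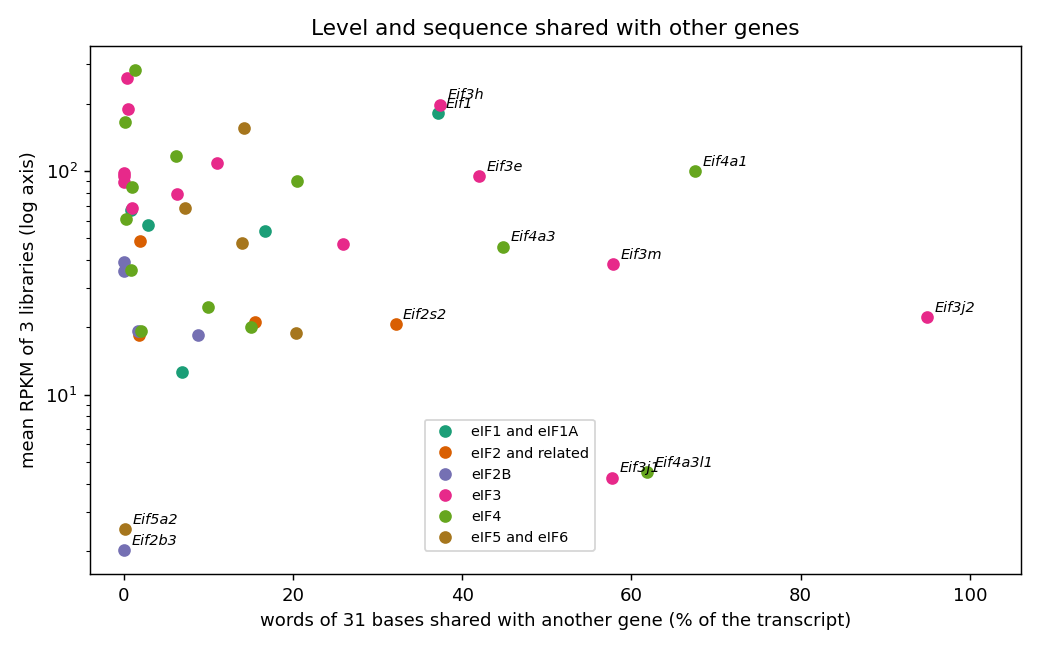
Mean level in RPKM (log axis) of the 46 genes with counts against the percentage of 31-base words of their longest coding transcript that occur in another gene, coloured by factor. Low genes are found at both ends: Eif2b3 and Eif5a2 share almost no words, while Eif3j1 and Eif4a3l1 share over 50%.

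The spread between libraries was tested over the 12147 genes that passed a filter on low counts, which 46 of the 47 genes did. A chi-square test against Poisson counting noise, adjusted by Benjamini-Hochberg, called 27 of the 46 genes (58.7%), against 54.6% of all genes tested, so this share is near the background. The smallest adjusted p, 1.31e-71, belonged to Eif4g2, which also had the most counts of the 46, and the next, 1.64e-48, to Eif1. Without replicate 3 the chi-square test called 13 of the 46 genes, and 3145 of all genes that passed the filter in those libraries, against 6627 with every library. Without replicate 2 it called 15 of the 46 and 4256 of all. The filter was applied anew to the remaining libraries each time, so these counts over all genes are not shares of 12147. Eif4g2 was no longer called without replicate 3 (adjusted p = 0.858). With every library, where 54.6% of all genes tested were called, Eif3f, Eif3h, Eif3i and all 5 eIF2B genes were among the 19 not called. This test depends on the number of counts. Eif2b3, with 91, 99 and 282 counts, was not called at a coefficient of variation of 8.99%. Eif4g1, with 5568, 5483 and 15177 counts, was called at 2.57%. None of the 46 genes varied more than other genes at a similar count when edgeR's quasi-likelihood model was fitted with an intercept alone, either after adjustment or at an unadjusted p under 0.05. In that fit 0.0165% of all genes were called, 2 of 12147, and 644 had an unadjusted p under 0.05.

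The initiation factor genes had a median coefficient of variation of 5.36%, against 9.76% for all genes tested. The coefficient falls with the level, so genes of like level are the nearer background: of the 3714 genes tested between 20.8 and 94.9993 RPKM, the middle quartiles of the 46, the median was 6.88%, against 4.63% for the 22 initiation factor genes in that range. A coefficient under 10% was found in 40 of the 46 genes (87.0%) and in 51.1% of all genes tested. The 6 above it were Eif3j1, Eif4a3l1, Eif5a2, Eif1, Eif1a and Eif6, of which Eif3j1 and Eif4a3l1 have near-identical copies. No test was made of these differences in spread.

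Replicates 1 and 2, of CASAVA 1.8.2, were then set against replicate 3, of 1.8.0, with 1 library on the second side. None of the 46 genes was called higher or lower by edgeR's quasi-likelihood test with Benjamini-Hochberg adjustment. Of all genes tested, 0.0165% were called higher and 0.0576% lower. At an unadjusted p under 0.05, 2 of the 46 genes were lower, Eif1 by -0.38 on the log2 scale (adjusted p = 0.418) and Eif3j1 by -0.72 (adjusted p = 0.453), and 0 were higher. Of all genes tested, 608 (5.01%) were lower and 561 (4.62%) higher at that limit, so 2 of 46 (4.35%) is near the background. DESeq2 called 0 of the 46 and 36 of all genes after adjustment, and 1 of the 46 and 458 of all at an unadjusted p under 0.05. The median fold change of the 46 genes was -0.04 on the log2 scale, against 0.01 for all genes tested, and the range ran from -0.72 to 0.17.

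Small as these shifts were, they were uneven between libraries. Replicate 3 was the highest library for 23 of the 46 genes, against 35.1% of all genes tested, and the lowest for 7 (15.2%), against 36.1%. Replicate 2 was the lowest for 21 (45.7%), against 36.3%. By group, replicate 3 was the highest for 4 of 5 genes of eIF1 and eIF1A, 2 of 4 of eIF2 and its relatives, 2 of 5 of eIF2B, 8 of 14 of eIF3, 6 of 13 of eIF4 and 1 of 5 of eIF5 and eIF6. It was the lowest for 0, 0, 1, 0, 4 and 2 genes of these groups in the same order. Other lists moved between the same libraries. Of the 12 elongation and termination factor genes tested, described below, replicate 3 was the highest for 8 (66.7%) and the lowest for 4 (33.3%). Replicate 2 was the lowest for 6 of them (50%). Of the 36 regulators of translation, also described below, replicate 3 was the highest for 16 (44.4%) and the lowest for 7 (19.4%). Replicate 2 was the lowest for 17 of these (47.2%). All 16 mitosis genes were highest in replicate 3 and lowest in replicate 2, with summed levels of 1684, 1343 and 1910 RPKM in replicates 1, 2 and 3. All 10 immediate early and heat shock genes tested did the same, with sums of 398, 288 and 573 RPKM over the 13 in the list. The 15 neutrophil genes, of which 11 were highest in replicate 3, summed to 1339, 1610 and 2376 RPKM, and none was at 0. All 7 monocyte and macrophage genes tested were highest in replicate 3 and lowest in replicate 1, and the 12 in the list, led by Lyz2 (190 ± 36.0 RPKM) and Itgam (15.4 ± 0.877 RPKM), summed to 184, 218 and 265 RPKM. Of the 12 pre-B markers 8 were lowest in replicate 3, with sums of 4846, 5017 and 4459 RPKM. The part of these lists in the initiation factor levels was not tested.

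**Figure D4:**
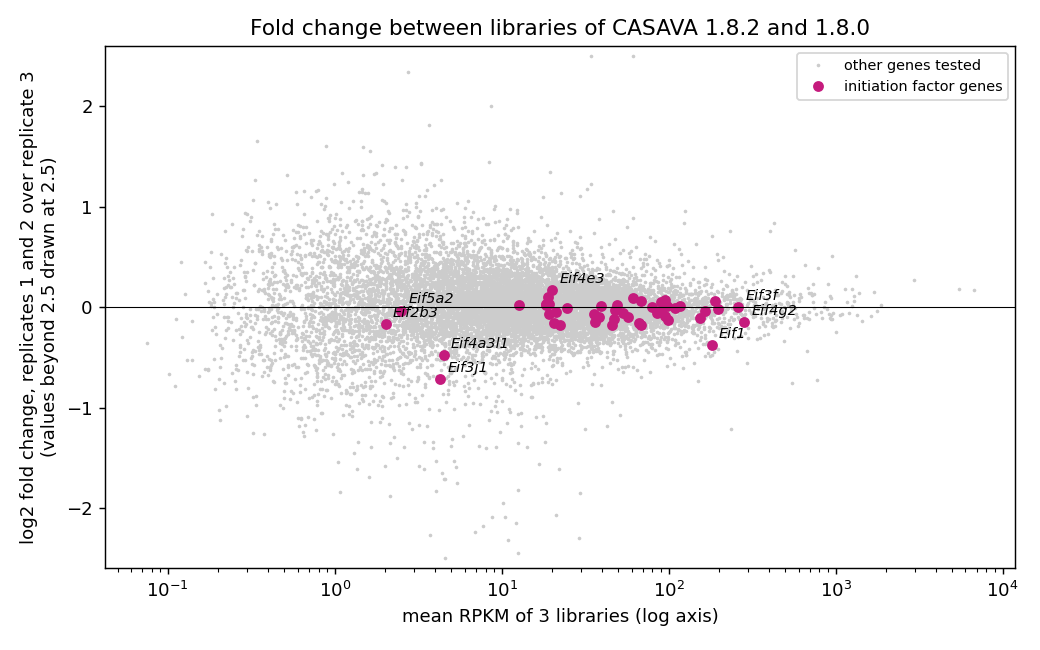
Fold change (log2) of replicates 1 and 2 over replicate 3 against the mean level in RPKM (log axis) for the 12147 genes tested, with the 46 initiation factor genes in colour; values beyond 2.5 are drawn at 2.5. The initiation factor genes lie close to 0, from -0.72 for Eif3j1 to 0.17 for Eif4e3, and none passed the test.

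Of the other genes of the pathway, a list of 36 regulators of translation was all expressed at 1 RPKM or more in every library. The list had a median of 4.70 ± 0.05 on the log2(RPKM + 0.5) scale and was led by the poly(A)-binding protein gene Pabpc1 (377 ± 12.5 RPKM), its inhibitor Paip2 (268 ± 15.6 RPKM), the helicase gene Ddx3x (132 ± 12.04 RPKM) and Atf4 (132 ± 23.0 RPKM), the transcription factor whose translation rises when eIF2 is phosphorylated. The lowest were Eif2s3x and Impact, at 3.74 ± 0.458 RPKM. Of the kinases that phosphorylate eIF2, Eif2ak3 (PERK, the sensor of the endoplasmic reticulum) stood at 44.9, 57.7 and 46.8 RPKM and Eif2ak1 (the haem-regulated kinase) at 43.9, 46.7 and 41.7 RPKM. Eif2ak4 (GCN2, the amino acid sensor) stood at 12.9 ± 0.639 RPKM and Eif2ak2 (PKR, the sensor of double-stranded RNA) at 7.42, 11.2 and 7.77 RPKM. Replicate 2 was the highest library for all 4 kinases, and none was called in the comparison of CASAVA versions.

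In that comparison 1 of the 36 regulators was lower and 0 were higher. This was Ppp1r15a, which encodes GADD34, the inducible subunit that brings a phosphatase to eIF2. It stood at 8.59 and 7.90 RPKM in replicates 1 and 2, against 21.1 RPKM in replicate 3, a log2 fold change of -1.36 (edgeR quasi-likelihood test, adjusted p = 0.0448). It rests on replicate 3 alone, so the CASAVA version and that library cannot be told apart. The call was lost when all genes with a count were tested (adjusted p = 0.305) and when the counts of replicate 3 were thinned to the lowest library total (0.0910), with log2 fold changes of -1.37 and -1.34, and DESeq2 gave 0.000284. The immediate early and heat shock sums given above were highest in the same library. The constitutive partner Ppp1r15b, named after its values were seen, stood at 59.3 and 60.1 RPKM in replicates 1 and 2, against 67.8 RPKM in replicate 3, and Atf4 at 119.8 and 117 RPKM, against 158 RPKM, neither of them called (adjusted p = 0.691 and 0.368, edgeR).

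**Figure D5:**
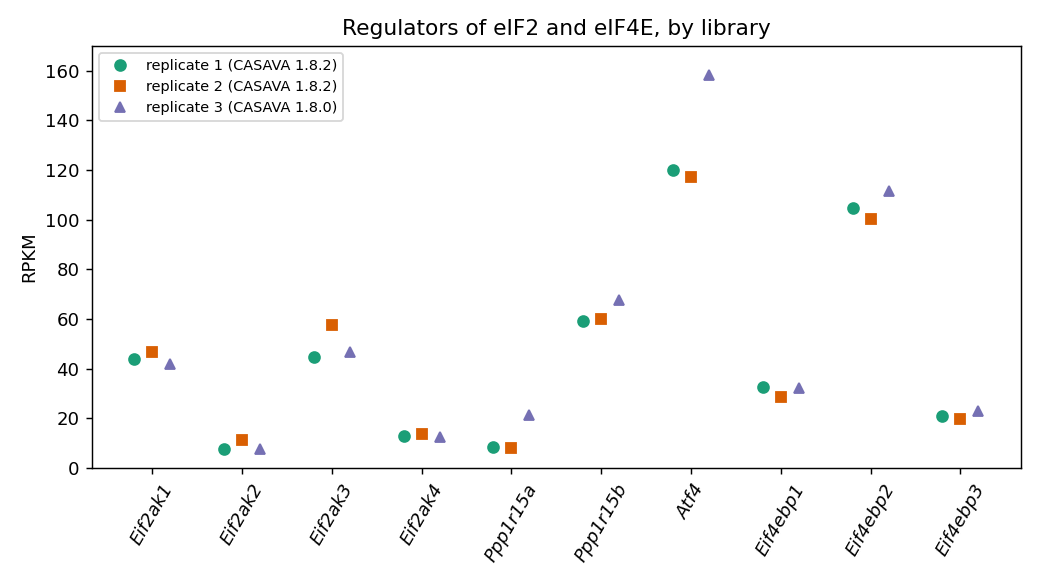
Levels in RPKM, by library, of the eIF2 kinases, the eIF2 phosphatase subunits, Atf4 and the eIF4E-binding proteins. Ppp1r15a in replicate 3, at 21.1 RPKM, stands apart from 8.59 and 7.90 RPKM in replicates 1 and 2, and Eif4ebp2 leads the eIF4E-binding proteins in each library.

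Elongation and termination factors were measured as the neighbouring step, and 12 of 14 reached 1 RPKM in every library. Their median, 4.65 ± 0.07 on the log2(RPKM + 0.5) scale, was below that of the initiation factor genes, but single members were far higher. Eef1a1, which delivers aminoacyl-tRNA, stood at 942 ± 32.4 RPKM and Eef2, the translocase, at 823 ± 27.7 RPKM, both above every initiation factor gene. Eef1b2 (149.8 ± 6.45 RPKM) and Eef1g (106.04 ± 2.68 RPKM) followed. Gspt2, a termination factor gene, stood at 0.0323, 0 and 0.0623 RPKM, and Eef1a2, the muscle and neuron form, had 0 counts in every library, which allows up to 0.118, 0.122 and 0.0456 RPKM. None of the 12 tested was called between the CASAVA versions.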

How the data were processed

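Raw read counts per Entrez gene and gene lengths in bases were deposited for 3 libraries, and the series table equals the 3 sample files. Reads were summarised with featureCounts on mm9, per the submitters' processing notes; CASAVA versions are from the sample labels. For the aligner, annotation, strand and multi-mapping settings: not given in the sources used here. Symbols and gene types came from RefSeq (GRCm38.p6) by Entrez identifier, matching 24176 of 26286. Promoters are RefSeq's, on GRCm38.p6, not the build of the counts.

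RPKM was computed from the deposited counts and lengths with TMM-scaled library sizes (factors 0.997 to 1.003) in edgeR 4.0.16 (limma 3.58.1, R 4.3.3); DESeq2 1.42.0 was an alternative. Tests covered the 12147 genes that filterByExpr retained (count of 10, total of 15), and p-values were adjusted over all of them (Benjamini-Hochberg, threshold 0.05). The deeper replicate 3 has less counting error at the same level. Variability was an F test of the quasi-dispersion against its prior. Words of 31 bases, both strands, came from GENCODE transcripts (GRCm38). The tests were tried on simulated counts. Every one of the 47 genes could be named; of other lists the 4 highest and 2 lowest, the eIF2 kinases, eIF4E-binding proteins, Atf4, Dhps, Dohh and called genes, and the 2 highest markers. The members and lists were chosen with earlier results of these data known.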

Additional observations from a re-analysis of the deposited data

How the results depend on the processing

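Other scalings, TPM or CPM in place of RPKM, GENCODE lengths and leaving out each library left 46 of the 47 genes at 1 or more in every library. The median of the 47 genes was 6.93 with TPM, 6.58 with CPM and, in an alternative chosen after seeing the data, 5.52 with GENCODE transcript lengths. Without length correction (CPM) the difference of Eif4a1 minus Eif4a2 was -0.61 and that of Eif4e minus Eif4e2 -0.41. With GENCODE lengths the differences were -0.00437 for Eif4a1 minus Eif4a2, -0.91 for Eif4e minus Eif4e2, -0.48 for Eif4e minus Eif4e3 and -0.0672 for Eif2s1 minus Eif2s2. These 6 changes of sign follow from the lengths used. Eif4g1 minus Eif4g3 kept its sign, at 0.97. The CASAVA comparison called 9 genes, 23 with no scaling, 0 with all genes with a count, 0 with replicate 3 thinned to the smallest total and 36 by DESeq2, with 0 of the initiation factor genes in each. Leaving out replicate 1 or 2 left 1 library a side, with no test, and was not run as one. The variability test called 2 genes, 47 with all genes with a count and 0 in a robust fit, and 2 to 44 with a replicate left out, with 0 initiation factor genes in each. The Poisson test called 3145 to 5590 genes and 13 to 19 initiation factor genes with a replicate left out, and 27 under each scaling, of which 25 were shared when replicate 3 was thinned. The cause of these moves was not tested beyond fewer samples. No paired analysis was possible because there is 1 group.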
